A study of Mus musculus with 12 samples.

Results

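ERV1 elements are endogenous retroviruses of class I, the remains of retroviral infections of the germline whose closest living relatives are the gammaretroviruses such as murine leukaemia virus. A complete insertion, or provirus, carries an internal region with the *gag*, *pol* and *env* genes between a pair of long terminal repeats (LTRs), which hold the promoter and the polyadenylation signal. Recombination between the LTRs often leaves a solitary LTR behind. Germ cells of the testis hold such elements down with DNA methylation, repressive histone marks and piRNAs, the small RNAs that guide PIWI proteins to transposon transcripts.

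The members were all repeat copies that the counts table assigned to family ERV1, other than names beginning RLTR10, summed by the name of their subfamily. No ERV1 name began that way. The rule gave 147 subfamilies with 71648 copies, of 1554 subfamilies and 5138235 repeat copies in all. Of the 147, 30 were internal regions (names ending in -int) and 117 were LTRs. A further 115 copies with a questioned family assignment (ERV1?) were not members. The table names each copy by subfamily and a serial number and gives neither position, length nor strand, so levels were not compared per length, copy sequences are not shown here, and whether a copy lies inside a gene was not tested.

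The libraries came from whole testes of C57BL/6 mice at postnatal day 16, when the first wave of germ cells is in meiosis. The control group was *Mael*+/- (heterozygous) and the other was *Mael*-/-, which lacks Maelstrom, a protein needed to make piRNAs. Each genotype had 3 biological replicates. Total RNA, depleted of ribosomal RNA, and ribosome footprints, the fragments that ribosomes shield from nuclease, were sequenced from aliquots of the same cycloheximide-treated extracts, giving 12 libraries in 4 groups. Whole testis also contains Sertoli, Leydig and blood cells, and in such bulk samples fewer cells of a type and less RNA per cell cannot be told apart.

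Gene counts totalled 13697267 to 27462358 per RNA library and 7609932 to 13233565 per footprint library. Counts in repeats made up 7.65 to 10.2% of the total in RNA and 10.8 to 13.6% in footprints. *Mael*, the targeted gene (chromosome 1, 166201385 to 166238744 of GRCm38), had 5045, 4314 and 3800 counts in heterozygous RNA and 1, 2 and 0 in *Mael*-/- RNA, which matched the labels. In footprints it had 1294, 660 and 863 counts against 0, 0 and 7. Heterozygous replicate 1 stood apart. Levels are given as CPM, the count relative to all gene counts of a library after TMM correction. The summed level of 15 pachytene genes was 1041 CPM in its RNA, against 390 and 411 in heterozygous replicates 2 and 3 and 328 to 370 in *Mael*-/- RNA. In its footprints that sum was 1237 CPM, against 392 and 464 and 351 to 391. Results are therefore given with and without this replicate. Genes of early meiotic prophase were also highest in it, at 2037 CPM in RNA against 671 to 1018 in the other 5 RNA libraries. The markers of Sertoli cells (6710 to 7505 CPM in RNA), Leydig cells (272 to 539) and macrophages (129 to 216) were not highest in it.

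ERV1 reads were spread unevenly over subfamilies and copies. Of the 71648 copies, 12176 (17.0%) had at least 1 count, and 139 of the 147 subfamilies did. ERV1 made up 10.8 to 11.8% of the counts of LTR-class repeats in RNA and 9.20 to 10.1% in footprints. The 5 VL30 and RLTR6 subfamilies held 36.9% of ERV1 counts in RNA and 19.2% in footprints. VL30 elements are retrotransposons whose RNA is packaged efficiently into particles of murine leukaemia virus. The GLN subfamilies, named for the glutamine tRNA that primes their reverse transcription, held 7.55% in RNA and 9.90% in footprints. Subfamilies of murine leukaemia virus and RLTR4 held 6.41% and 6.40%. The 84 subfamilies named MER, LTR or HUERS, mostly old insertions shared by many mammals, together held 5.49% and 8.61%.

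Few copies carried most of the counts of many subfamilies. In 35 subfamilies 1 copy held more than 50% of the counts. Many of the 35 had few counts, such as LTR23-int and MER49 with 1 each, where such a share says little. Those with at least 200 counts were LTR68, MuLV-int, RLTR1A2_MM, RLTR30D_RN, RLTR41B and RLTR41C. MMVL30-int, the VL30 internal region, was the most abundant subfamily in RNA, and 39.6% of its counts lay in the single copy MMVL30-int_816. MMERGLN-int_54 held 40.5% of the counts of MMERGLN-int, and MuLV-int_75 held 51.7% of those of the murine leukaemia virus internal region. Of the 75 subfamilies with at least 200 counts RLTR41C was the most uneven, with 89.3% in RLTR41C_107. At the other end, the leading copy of the LTR RMER5 held 2.43% of its counts, and 72 of its copies were needed to reach 50%.

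The first comparison asked whether RNA of ERV1 elements differed between the genotypes. Summed over all members, ERV1 RNA was 1004, 777 and 849 CPM in heterozygous replicates 1 to 3 and 1094, 864 and 892 CPM in *Mael*-/-. The groups overlapped. The mean was 877 ± 116 CPM (SD, n = 3) in heterozygous and 950 ± 126 CPM (SD, n = 3) in *Mael*-/- testes, a log2 difference of 0.12 (two-sided exact permutation p = 0.5, the smallest possible being 0.1). Without heterozygous replicate 1 the difference was 0.22 (exact permutation p = 0.2, the smallest possible with that number of libraries). For scale, RNA of the LINE-1 subfamily L1Md_T was 85.4, 55.9 and 66.5 CPM in heterozygous and 521, 471 and 306 CPM in *Mael*-/- testes. The ratio of ERV1 to all other LTR-class repeats was 12.8 ± 0.589% in heterozygous and 12.5 ± 0.0913% in *Mael*-/- RNA (SD, n = 3), an overlap again (exact permutation p = 0.6).

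MMVL30-int RNA was 294, 241 and 262 CPM in heterozygous libraries and 365, 273 and 300 CPM in *Mael*-/- libraries, with overlapping groups and a log2 fold change of 0.23 (95% interval -0.12 to 0.59). MMERGLN-int was at 72.9, 69.2 and 55.02 against 71.8, 65.8 and 62.6 CPM. MuLV-int was at 36.7, 36.7 and 42.2 against 44.0, 34.2 and 37.9 CPM. For both, the values of 1 genotype lay inside or across those of the other, and the log2 fold changes were 0.02 (SE 0.19) and 0.01 (SE 0.19). RLTR4_MM-int, another internal region of the leukaemia virus group, had a mean of 17.0 ± 2.41 CPM in heterozygous and 17.7 ± 3.94 CPM in *Mael*-/- RNA (SD, n = 3). MURVY-int, from a retrovirus family found on the Y chromosome, had a mean of 1.43 ± 0.408 and 1.93 ± 0.663 CPM (SD, n = 3).

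**Figure D1:**
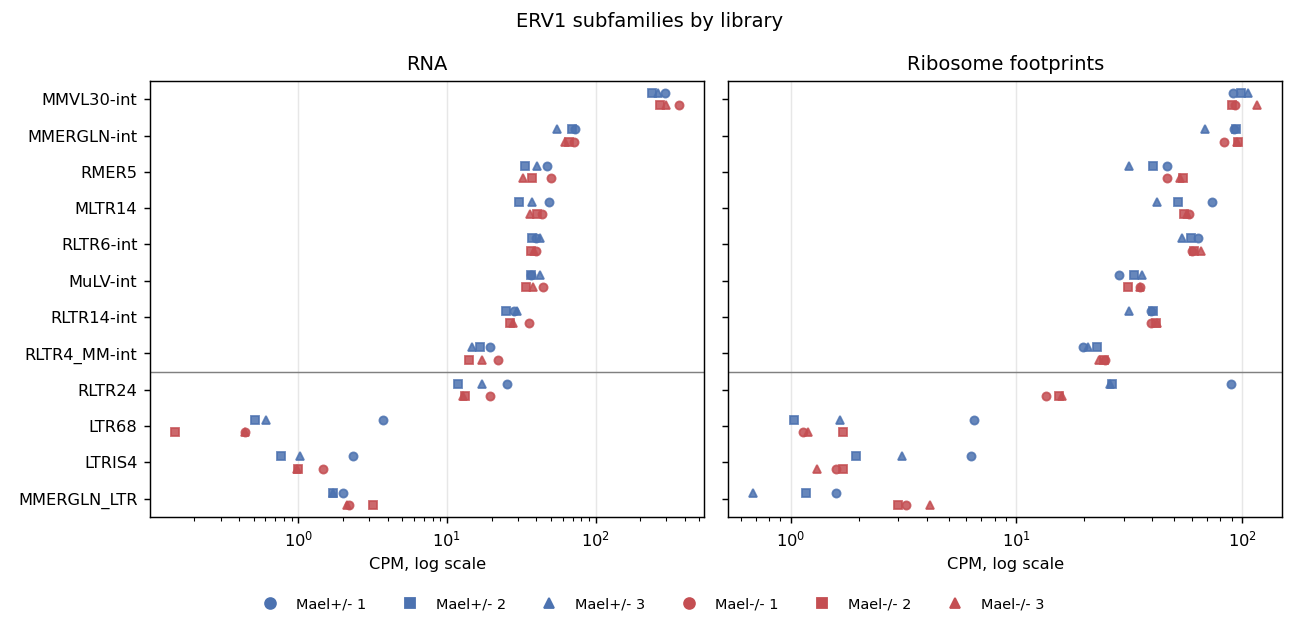
CPM (log axis) of the 8 ERV1 subfamilies with the highest mean RNA level (above the grey line) and of the 4 subfamilies called in footprints (below it), in RNA (left) and ribosome footprints (right). Each point is 1 library, with blue for *Mael*+/-, red for *Mael*-/- and the marker giving the replicate. The abundant subfamilies overlap between genotypes in RNA, and the circle of heterozygous replicate 1 lies to the right of all other libraries in the footprints of RLTR24, LTR68 and LTRIS4.

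Of the 147 subfamilies, 87 had enough RNA counts to be tested, and edgeR's quasi-likelihood test called none of them at an adjusted p under 0.05 (0 of 87). Among all 1114 repeat subfamilies tested, 10 were called (0.898%), all of them higher in *Mael*-/-. The unadjusted p was under 0.05 for 3 ERV1 subfamilies and for 62 of all 1114 (5.57%). The log2 fold change was above 0 for 50 of the 87, and for 69.8% of all subfamilies. DESeq2 and edgeR with robust estimation also called 0, and limma voom called 1, RLTR1B-int. The median log2 fold change of the 87 was 0.02, against 0.10 over all repeat subfamilies. When libraries were scaled on repeats instead of genes, the medians shifted to -0.07 and -0.01, so that the sign of the ERV1 median depended on the scaling. For 63 of the 87 (72.4%) the 95% interval of the change lay within 2-fold either way, as it did for 74.9% of all subfamilies. All *Mael*-/- libraries lay above all heterozygous ones for 7 members and below them for 2, while the shares over all subfamilies were 9.43% and 1.62%. Without heterozygous replicate 1 these counts of members were 20 and 3, and the shares over all subfamilies 23.1% and 2.24%.

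The 3 with an unadjusted p under 0.05 were RLTR1B-int, MuRRS4-int and LTR68. RLTR1B-int RNA was 12.3, 7.24 and 9.10 CPM in heterozygous and 14.99, 14.3 and 14.5 CPM in *Mael*-/- libraries. The groups did not overlap, and the log2 fold change was 0.61 (SE 0.23, edgeR quasi-likelihood adjusted p = 0.446). MuRRS4-int, from murine retrovirus-related sequences, was at 13.9, 11.05 and 13.9 against 24.5, 15.02 and 15.9 CPM, with a log2 fold change of 0.50 (SE 0.23, edgeR quasi-likelihood adjusted p = 0.867). Its groups did not overlap either, although *Mael*-/- replicate 1 lay well above the other libraries. LTR68 was at 3.73, 0.512 and 0.604 against 0.437, 0.149 and 0.438 CPM. All 3 *Mael*-/- libraries were below the heterozygous ones, with heterozygous replicate 1 far above the rest, and the log2 fold change moved from -2.20 (edgeR quasi-likelihood adjusted p = 0.239) to -0.70 without that replicate. Summed without its most counted copy, LTR68_25, it was 0.20. Leaving out heterozygous replicate 2 or 3 instead gave LTR68 edgeR quasi-likelihood adjusted p-values of 1.61e-07 and 0.0153.

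Single copies were also tested in RNA, where no ERV1 subfamily was called. This test was added after the copies had been seen, and the copies are named because they were called. Of 295 ERV1 copies tested in RNA, 6 (2.03%) were called by edgeR's quasi-likelihood test, 4 higher and 2 lower in *Mael*-/-. Over all 16710 copies tested, 1.62% were called, 1.51% higher and 0.102% lower. With both directions together, the share of ERV1 copies called was thus close to that of all copies.

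RLTR1B-int_351 had 0, 1 and 0 RNA counts in heterozygous and 12, 20 and 26 in *Mael*-/- libraries (edgeR quasi-likelihood adjusted p = 1.93e-05). The ratio of the pooled, scaled counts was 72.7, with a 95% counting interval of 12.5 to 2921. It kept an adjusted p of at most 4.18e-04 with any single library left out (edgeR quasi-likelihood). This copy passed the filter on low counts only through its *Mael*-/- libraries, and the interval leaves out the spread between replicates. In footprints the same copy had 5, 8 and 6 counts against 6, 5 and 5, too few to be tested, and the groups overlapped.

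MuRRS-int_196 had 46, 28 and 28 RNA counts in heterozygous and 57, 60 and 78 in *Mael*-/- libraries, and the log2 fold change was 1.28 (SE 0.29, edgeR quasi-likelihood adjusted p = 0.0153). MuRRS-int_197, the next serial number, had 24, 21 and 8 against 34, 37 and 47 counts (log2 fold change 1.50, SE 0.35, edgeR quasi-likelihood adjusted p = 0.0194). MuRRS4-int_401 had 23, 21 and 34 against 48, 39 and 56 counts (log2 fold change 1.26, SE 0.31, edgeR quasi-likelihood adjusted p = 0.0280). All 3 were higher in every *Mael*-/- library, but leaving out 1 library raised their adjusted p to as much as 0.114, 0.133 and 0.258 (edgeR quasi-likelihood). These calls were thus not stable. All 3 were lost without *Mael*-/- replicate 1, and each was also lost on leaving out at least 1 other library. They were kept without heterozygous replicate 1.

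The 2 copies that fell in RNA were RLTR24_1141 and RLTR6-int_411. Both passed the filter on low counts only through heterozygous libraries. RLTR24_1141 had 88, 14 and 26 RNA counts in heterozygous libraries and 0 in each *Mael*-/- library, which makes it at least 11.1-fold lower against a floor of 3 counts in each *Mael*-/- library (edgeR quasi-likelihood adjusted p = 1.20e-04) and at least 4.70-fold lower without heterozygous replicate 1. RLTR6-int_411 had 59, 13 and 13 counts against 2, 1 and 2 (log2 fold change -3.72, SE 0.73, edgeR quasi-likelihood adjusted p = 0.00315). Without heterozygous replicate 1 the log2 fold change of RLTR6-int_411 was -2.47 (edgeR quasi-likelihood adjusted p = 0.224), and it was not called.

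The second comparison asked the same of ribosome footprints. Summed ERV1 footprints were 1049, 870 and 773 CPM in heterozygous and 889, 923 and 943 CPM in *Mael*-/- libraries. The *Mael*-/- values lay within the heterozygous range, with means of 897 ± 140 and 918 ± 27.2 CPM (SD, n = 3) and a log2 difference of 0.04 (exact permutation p = 0.7). Internal regions had a mean of 447 ± 31.5 CPM in heterozygous and 473 ± 18.1 CPM in *Mael*-/- footprints, and LTRs had 450 ± 111 and 445 ± 15.4 CPM (SD, n = 3). Without heterozygous replicate 1 the log2 difference of the sum was 0.16 (exact permutation p = 0.2). It was -0.06 without heterozygous replicate 3 and -0.10 when libraries were scaled on repeats, so that its sign was not settled. Of the groups of related subfamilies, RLTR1 was higher in all *Mael*-/- footprint libraries, at 35.1, 36.3 and 34.9 against 41.6, 44.9 and 49.5 CPM, and the RLTR24 group was lower in all, at 91.1, 28.3 and 28.7 against 16.1, 18.1 and 18.7 CPM (exact permutation p = 0.1 for each, the smallest possible). They are named because they did not overlap. All other groups overlapped in footprints, and in RNA every group did, RLTR1 and RLTR24 included. Among all 1045 single subfamilies tested in footprints, 11.3% lay above in all *Mael*-/- libraries and 1.72% below.

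Of 78 ERV1 subfamilies tested in footprints, 4 were called by edgeR's quasi-likelihood test, with RLTR24, LTRIS4 and LTR68 lower and MMERGLN_LTR higher in *Mael*-/-. All 4 are LTRs, and none of the 15 internal regions tested was called or had an unadjusted p under 0.05. Among all 1045 subfamilies tested, 19 were called (1.82%), 12 higher (1.15%) and 7 lower (0.67%). The unadjusted p was under 0.05 for 12 members and for 7.46% of all subfamilies. The log2 fold change was above 0 for 53 of the 78, and for 73.8% of all subfamilies. The median log2 fold change of the 78 was 0.11 against 0.13 over all subfamilies. Scaling on repeats gave medians of -0.03 for ERV1 and -0.0025 over all, again with a change of sign. Under that scaling the 4 subfamilies stayed on the same side of 0 but none was called (0 of 79 in edgeR, 15 at an unadjusted p under 0.05), beside 0.675% of all subfamilies called and 8.87% at an unadjusted p under 0.05. All *Mael*-/- libraries were above all heterozygous ones for 15 members (11.3% of all subfamilies) and below for 4 (1.72% of all). The counts were 31 and 4 without heterozygous replicate 1, and the shares of all subfamilies 37.3% and 3.44%. In this fit the estimated spread was nearly the same for every subfamily, with a biological coefficient of variation of 14.7 to 19.0%. The quasi-likelihood test adds its own estimate of spread, which is not shown here. A subfamily whose libraries spread more widely may have received too small a p.

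**Figure D2:**
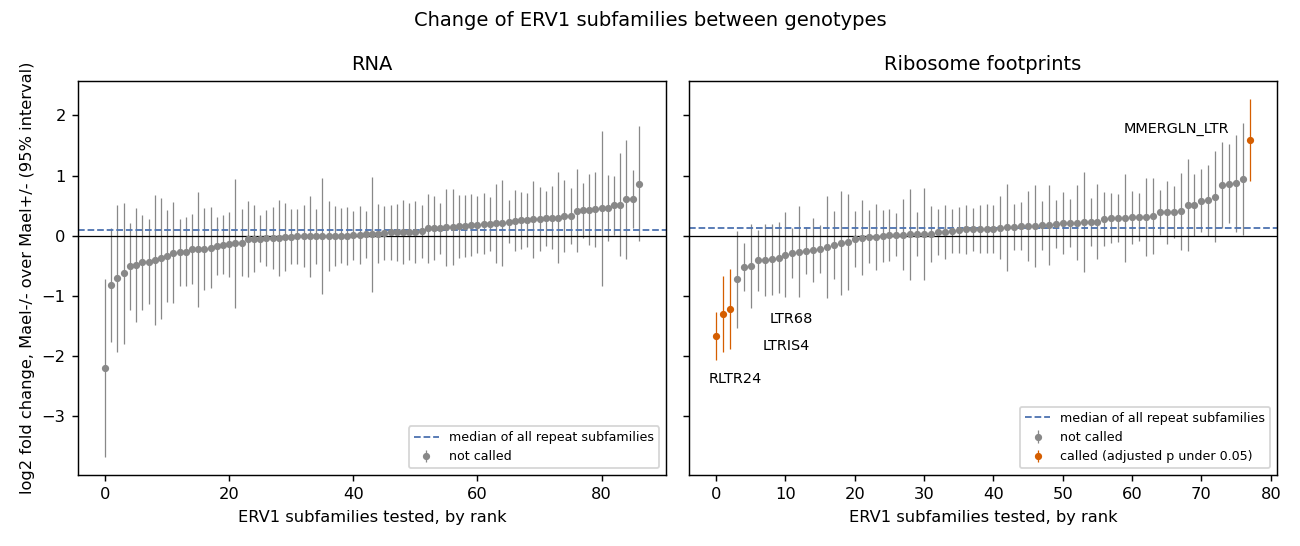
Log2 fold change of each tested ERV1 subfamily, *Mael*-/- over *Mael*+/-, in RNA (left, 87 subfamilies) and ribosome footprints (right, 78 subfamilies), ordered by value. Bars are 95% intervals of the edgeR fit, the dashed line is the median of all repeat subfamilies (0.10 and 0.13) and orange marks the 4 called subfamilies. Most intervals cross 0, and the lowest point in RNA is LTR68, which was not called there.

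MMERGLN_LTR, the LTR of the GLN elements, had 1.59, 1.16 and 0.683 CPM in heterozygous and 3.25, 2.99 and 4.15 CPM in *Mael*-/- footprints. All 3 *Mael*-/- libraries lay above the heterozygous ones. The log2 fold change was 1.59 (SE 0.35, edgeR quasi-likelihood adjusted p = 5.36e-04) and 1.92 without heterozygous replicate 1 (edgeR quasi-likelihood adjusted p = 1.35e-04). Without heterozygous replicate 3 it was 1.29 and not called (edgeR quasi-likelihood adjusted p = 0.143), and the call was also lost with genes and subfamilies in 1 fit (edgeR quasi-likelihood adjusted p = 0.338). MMERGLN_LTR was the only ERV1 subfamily that DESeq2 called in footprints. The change came from few reads, 31 heterozygous and 108 *Mael*-/- counts over 43 copies, of which 30 had more counts in *Mael*-/- and 8 had fewer. These counts are not scaled for depth, and the subfamily is named for its rise. The direction of its copies is therefore no separate support. Copy MMERGLN_LTR_76 alone rose from 4, 3 and 0 to 13, 15 and 15 counts, was not seen in RNA at all, and was picked out here after its counts were seen. The other copies summed to 1.17, 0.776 and 0.683 against 2.27, 1.50 and 2.37 CPM, still without overlap. The internal region MMERGLN-int was at 92.1, 93.8 and 68.7 against 82.9, 96.4 and 94.7 CPM in footprints, a log2 fold change of 0.11 (95% interval -0.25 to 0.47).

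RLTR24 had 88.9, 26.4 and 25.9 CPM in heterozygous and 13.5, 15.4 and 15.9 CPM in *Mael*-/- footprints. All *Mael*-/- libraries lay below, and heterozygous replicate 1 lay far above its own group. The log2 fold change was -1.66 (SE 0.20, edgeR quasi-likelihood adjusted p = 7.60e-14), and without heterozygous replicate 1 it was -0.82 (edgeR quasi-likelihood adjusted p = 2.13e-04). With robust estimation of the spread the adjusted p was 0.752, with DESeq2 it was 0.264, and with edgeR's quasi-likelihood test without heterozygous replicate 3 it was 0.0726.

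The fall of RLTR24 lay in 5 of its 255 copies with counts. RLTR24_1141 had 528, 68 and 98 footprint counts in heterozygous and 1, 1 and 4 in *Mael*-/- libraries. The copies RLTR24_1140, RLTR24_1068, RLTR24_132 and RLTR24_131 together had 176, 17 and 32 counts and none in *Mael*-/-. The other 250 copies summed to 14.2, 15.4 and 13.3 CPM in heterozygous and 13.5, 15.3 and 15.4 CPM in *Mael*-/- footprints, means of 14.3 ± 1.07 and 14.7 ± 1.08 CPM (SD, n = 3). The 5 copies were chosen after their counts were seen. In RNA the other 250 copies had a mean of 15.2 ± 3.94 in heterozygous and 15.2 ± 3.70 CPM in *Mael*-/- testes (SD, n = 3).

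**Figure D3:**
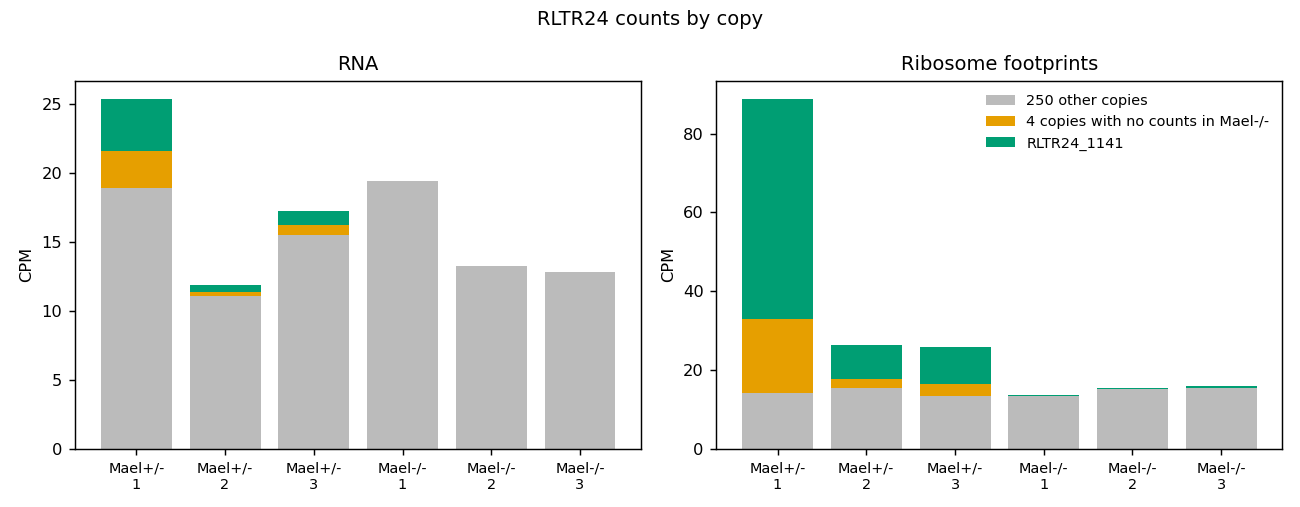
RLTR24 CPM in each library, stacked by copy, in RNA (left) and ribosome footprints (right, with its own scale). Grey is the sum of 250 copies, orange the sum of 4 copies with no counts in *Mael*-/- and green RLTR24_1141. The grey part of the footprint bars stays between 13.3 and 15.4 CPM in all 6 libraries, while green and orange are almost confined to the 3 heterozygous libraries and are tallest in replicate 1.

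LTRIS4 and LTR68 showed the same arrangement. LTRIS4 footprints were 6.26, 1.94 and 3.12 CPM in heterozygous and 1.59, 1.70 and 1.31 CPM in *Mael*-/- libraries, without overlap (log2 fold change -1.30, SE 0.32, edgeR quasi-likelihood adjusted p = 0.00389). Copy LTRIS4_112 accounted for 41, 2 and 6 heterozygous footprint counts and 0 in each *Mael*-/- library. LTR68 footprints were 6.47, 1.03 and 1.66 CPM against 1.14, 1.70 and 1.19 CPM, with the *Mael*-/- values between the lowest and the highest heterozygous ones (log2 fold change -1.21, SE 0.34, edgeR quasi-likelihood adjusted p = 0.0221). Copy LTR68_25 had 39, 0 and 3 footprint counts and 83, 1 and 9 RNA counts in heterozygous libraries and 0 in all 6 *Mael*-/- libraries. Without heterozygous replicate 1 the log2 fold change of LTRIS4 was -0.74 (edgeR quasi-likelihood adjusted p = 0.231) and that of LTR68 was -0.06 (edgeR quasi-likelihood adjusted p = 0.949), so neither was called. Without that replicate 5 members were called, RLTR24 lower and MMERGLN_LTR, MER34, MERV1_LTR and RMER5 higher, while 4.11% of all subfamilies were called, 3.27% being higher. Without heterozygous replicate 3 no member was called (0 of 82 in edgeR, 16 at an unadjusted p under 0.05), beside 0.467% of all subfamilies called and 7.29% at an unadjusted p under 0.05.

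Of 121 ERV1 copies tested in footprints, 3 were called, all lower in *Mael*-/-, beside 0.817% of all 5511 copies tested, 0.563% being called higher and 0.254% lower. They were RLTR24_1141 (log2 fold change -6.92, SE 0.79, edgeR quasi-likelihood adjusted p = 8.08e-05), RLTR24_1140 and RMER21B_824. RLTR24_1140 had 106, 9 and 24 counts in heterozygous and 0 in each *Mael*-/- library, at least 16.7-fold lower (edgeR quasi-likelihood adjusted p = 6.99e-04) and at least 5.96-fold lower without heterozygous replicate 1. RMER21B_824 had 61, 12 and 17 counts against 0, 1 and 1, a ratio of heterozygous to *Mael*-/- of 52.0 with a 95% counting interval of 14.0 to 436 (edgeR quasi-likelihood adjusted p = 3.82e-04). That ratio was 25.5 without heterozygous replicate 1 (95% counting interval 6.46 to 221), and the log2 fold change of RLTR24_1141 was -5.50. These 3 calls held with each footprint library left out in turn, but the 3 copies passed the filter on low counts only through heterozygous libraries. RMER21B_824 had 1, 0 and 2 counts in heterozygous RNA.

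RLTR24_1140, RMER21B_824, LTRIS4_112 and LTR68_25 belonged to a wider class, defined after the counts were seen as at least 20 counts over the 6 heterozygous libraries and at most 3 over the 6 *Mael*-/- libraries. RLTR24_1141, with 6 footprint counts in *Mael*-/-, did not meet this limit. The class held 27 of the 1183 ERV1 copies with at least 20 counts (2.28%), from 16 subfamilies. It held 0.933% of the other LTR-class copies and 0.390% of all repeat copies with that many. Together the 27 had 498, 46 and 106 RNA counts in heterozygous replicates 1 to 3 and 1, 2 and 4 in *Mael*-/-. In footprints they had 624, 56 and 104 counts, and 1, 1 and 4. Heterozygous replicate 1 was the highest heterozygous library for 26 of the 27 in RNA and for all 27 in footprints. Without it, 3 of the 27 still met the definition on replicates 2 and 3 alone. These were 0.254% of the 1183, beside 0.109% of the other LTR-class copies and 0.0344% of all repeat copies. In CPM the heterozygous footprint sums were 66.2, 7.24 and 10.1, which orders the replicates as the pachytene sum does (1237, 392 and 464 CPM). The footprint sum of early meiotic prophase genes had the same order (2775, 1014 and 1109 CPM). The sums of spermatogonial, Sertoli, Leydig and macrophage genes were ordered otherwise. Pachytene genes had a median log2 fold change of -0.79 in RNA, with 0 of 12 tested genes called in edgeR and 7 at an unadjusted p under 0.05. Over all genes tested in RNA these shares were 0.116% and 5.39%. The pachytene values include heterozygous replicate 1, whose summed RNA level was 1041 CPM against 390 and 411 in replicates 2 and 3. Every gene of the pachytene list had counts in both genotypes in RNA, while *Adam3* had 2, 2 and 2 heterozygous and no *Mael*-/- footprint counts. The part of pachytene or early meiotic cells in the counts of these copies was not tested.

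The opposite class, with at least 20 counts in *Mael*-/- and at most 3 in heterozygous libraries, held 7 ERV1 copies (0.592%). It held 0.504% of the other LTR-class copies and 0.645% of all repeat copies. MERV1_I-int_1324 had 0 counts in all 6 heterozygous libraries, 9, 18 and 9 in *Mael*-/- RNA and 9, 10 and 6 in *Mael*-/- footprints. MERV1_I-int_1322 likewise had 0 counts in heterozygous libraries, with 7, 12 and 6 RNA counts and 7, 3 and 8 footprint counts in *Mael*-/-. RMER21A_421 had 8, 5 and 7 RNA counts and 6, 10 and 6 footprint counts in *Mael*-/-, and none in heterozygous libraries. All 3 *Mael*-/- replicates had counts of these named copies in both assays, with none far above the rest. The named copies were picked from the 7 after their values were seen. Whether copies with close serial numbers belong to 1 insertion was not tested.

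**Figure D4:**
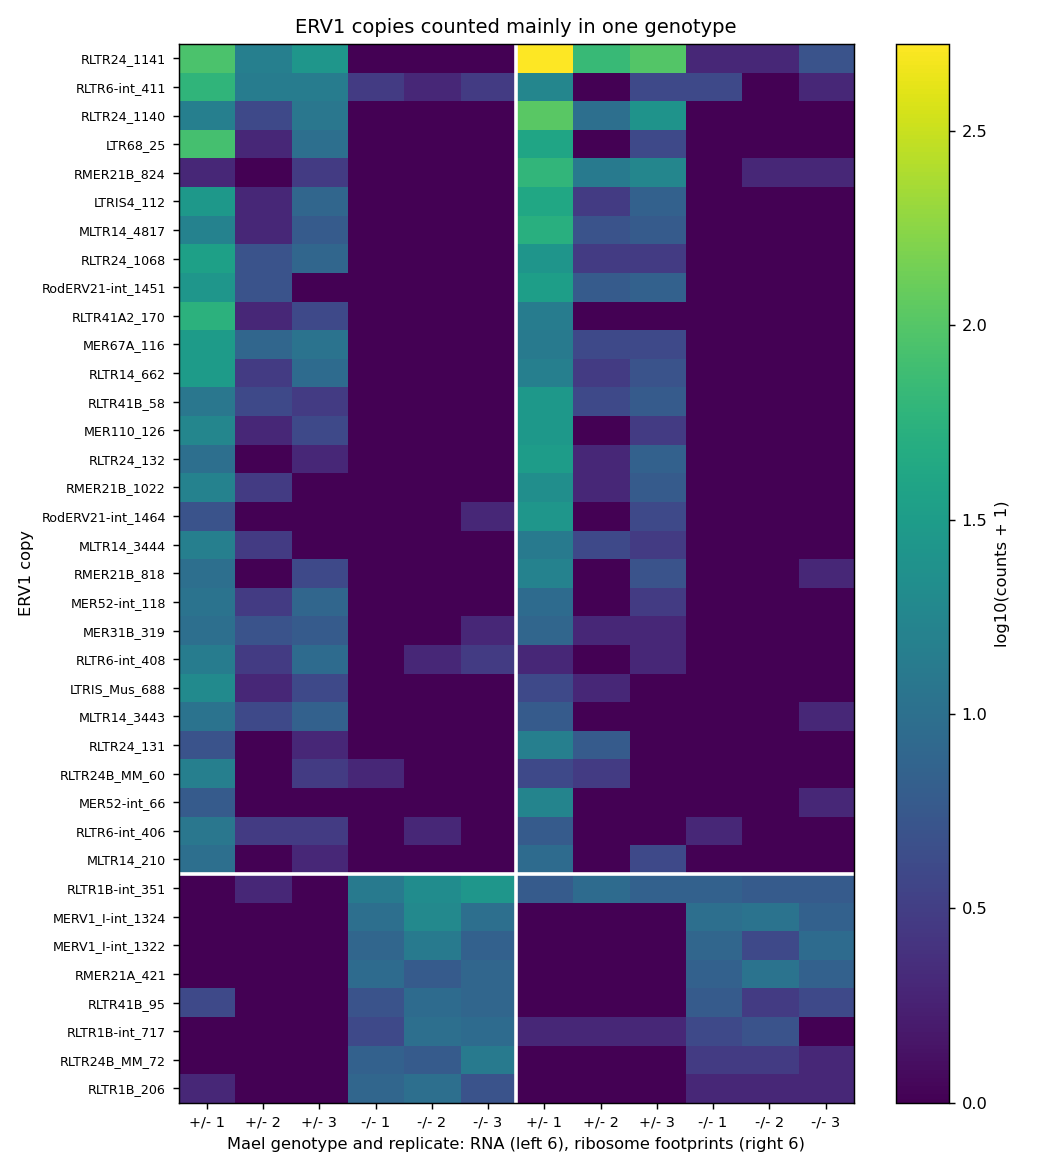
Counts of single ERV1 copies (rows) in the 12 libraries (columns), coloured by log10(counts + 1). The upper block holds RLTR24_1141, RLTR6-int_411 and the 27 copies counted in heterozygous libraries with at most 3 *Mael*-/- counts, and the lower block holds RLTR1B-int_351 and the 7 copies of the opposite class. In the upper block the first column of each assay, heterozygous replicate 1, is the brightest in nearly every row, and in the lower block the 3 *Mael*-/- columns are of similar colour.

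The third comparison asked whether footprints changed beyond RNA, a change of translation efficiency. Of 75 ERV1 subfamilies tested, edgeR's quasi-likelihood test of the interaction called 0, as did DESeq2, limma voom and edgeR with robust estimation, and 0 of all 996 subfamilies were called (0%). The unadjusted p was under 0.05 for 4 members and for 2.91% of all subfamilies. They were RLTR24 with a log2 change of -1.40 (95% interval -2.43 to -0.36), MMERGLN_LTR with 1.13 (0.24 to 2.01), MER34 with 1.31 (0.21 to 2.41) and RLTR48C (unadjusted p = 0.0497). The edgeR quasi-likelihood adjusted p was 0.941 for RLTR24 and 0.996 for the other 3. The interval lay within 2-fold either way for 43 of the 75 (57.3%, and 60.3% of all), and for the others the intervals did not exclude a 2-fold change. LTR68 had the widest interval of the 75, from -1.11 to 3.06.

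The ratio of footprint CPM to RNA CPM was lower for the internal regions of ERV1 than for the LTRs, mostly through 1 copy. For all ERV1 it was 0.812 to 1.12 in the 6 extracts. It was 0.692 to 0.964 for internal regions and 1.001 to 1.36 for LTRs, and the LTR value was the higher in each extract. Without the single copy MMVL30-int_816 the ratio of the internal regions was 0.955 to 1.27, close to that of the LTRs and still the lower in each extract. The ratio did not differ by genotype beyond the spread, with means of 1.02 ± 0.106 in heterozygous and 0.979 ± 0.144 in *Mael*-/- extracts (SD, n = 3, exact permutation p = 0.7). Footprints are shorter than RNA reads, the gene totals used for scaling covered coding sequence in footprints and whole mRNAs in RNA, and how reads with several genomic matches were counted in repeats is not given in the sources used here, so a ratio is a property of these counts and not a rate of translation.

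MMVL30-int_816, which also lowered the ratio of VL30, had 3311, 3083 and 2423 counts in heterozygous and 2530, 2699 and 3724 in *Mael*-/- RNA. In footprints it had 1, 0 and 1 counts and 1, 0 and 0. The most counted ERV1 copy in RNA was thus nearly absent from footprints in every extract. Without it, the footprint to RNA ratio of MMVL30-int was 0.515 to 0.773 in the 6 extracts, where it had been 0.255 to 0.411 with it. The other 447 copies with counts had means of 150 ± 21.3 and 161 ± 21.1 CPM in heterozygous and *Mael*-/- RNA and 98.8 ± 7.70 and 100 ± 14.6 CPM in footprints (SD, n = 3). RLTR1B-int_575 was similar to MMVL30-int_816, with 337 RNA counts and 3 footprint counts.

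Other copies were counted in footprints alone. RLTR1B-int_352 had 35, 40 and 59 heterozygous and 101, 64 and 44 *Mael*-/- footprint counts and 0 in all RNA libraries. RLTR6-int_981 had 310 footprint counts and MER34A1_58 had 269, each with 0 in RNA. RLTR41B_42 had 67, 50 and 88 heterozygous and 83, 86 and 50 *Mael*-/- footprint counts, beside 7 RNA counts, and RLTR41B had the highest footprint to RNA ratio of the 75 members with at least 200 counts, with a median of 14.7 over extracts. The lowest median was that of RLTR1D, at 0.234. Of the 1183 ERV1 copies with at least 20 counts, 60 (5.07%) had at least 20 footprint counts and at most 3 RNA counts, and 124 (10.5%) were the reverse. Over all repeats these shares were 6.79% and 21.9%.

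**Figure D5:**
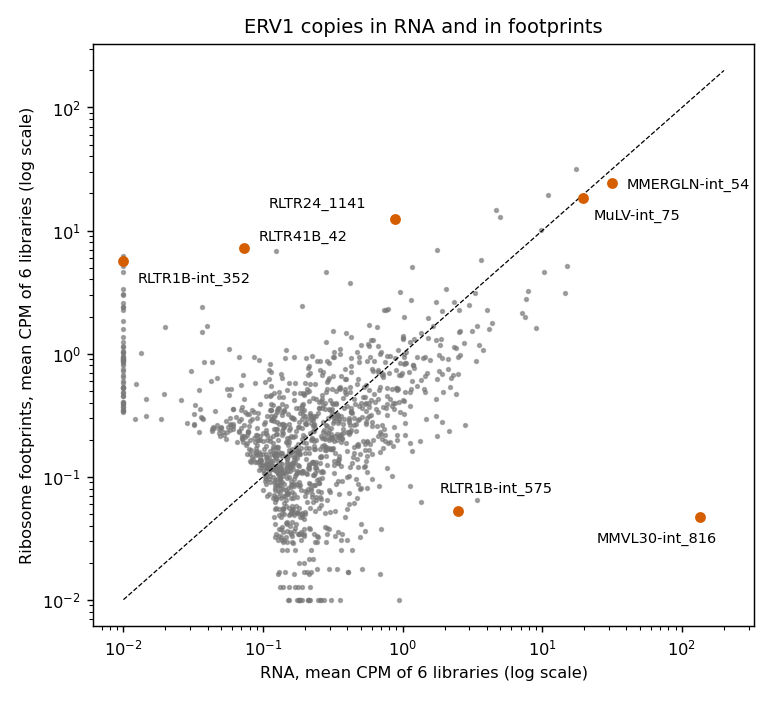
Mean CPM over 6 libraries in RNA (x axis) and ribosome footprints (y axis), both on log scales, for each of the 1183 ERV1 copies with at least 20 counts. Values under 0.01 CPM are drawn at 0.01, the dashed line marks equal CPM and orange points are named copies. MMVL30-int_816 lies far below the line, and RLTR1B-int_352 and RLTR41B_42 lie at its upper left, with footprints and almost no RNA.

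Genes that silence or restrict retroviruses showed little movement. The list held 23 genes, among them *Trim28* and *Setdb1*, which bring repressive histone methylation to proviruses, *Zfp809*, a zinc finger protein that binds the primer binding site of murine leukaemia virus, *Dnmt1* and *Uhrf1*, which maintain DNA methylation, and the restriction factors *Apobec3* and *Fv1*. None of the 23 was called in RNA or footprints (0 in edgeR and in DESeq2, with 0 at an unadjusted p under 0.05 in edgeR). Of all genes tested, 0.116% were called in RNA and 0.0593% in footprints, and 5.39% and 4.33% had an unadjusted p under 0.05. The lowest and highest log2 fold changes were -0.45 and 0.26 in RNA, and -0.21 and 0.23 in footprints. *Trim28* was at 548 CPM in heterozygous and 511 CPM in *Mael*-/- RNA, *Setdb1* at 221 and 246 CPM and *Zfp809* at 14.4 and 14.6 CPM. The 4 receptor genes *Slc7a1*, *Slc20a1*, *Slc20a2* and *Xpr1*, through which gammaretroviruses enter cells, had log2 fold changes of -0.03 to 0.09 in RNA, and none was called in edgeR or had an unadjusted p under 0.05.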

How the data were processed

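From footprints the authors trimmed a molecular identifier and removed ribosomal reads with Bowtie 1.2.2. They aligned reads to mm10 with STAR 2.6.0c and counted them with featureCounts (Subread 1.6.4), per the methods and the submitters' processing notes. Genes were counted over the whole mRNA in RNA and over the coding sequence in footprints, so the gene totals behind CPM differ in kind. The deposited table holds raw counts per gene and repeat copy. Strand, duplicates and multiply mapped reads in repeats are not given in the sources used here. The deposited DESeq2 tables of log2 fold changes and p-values were not used.

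Counts were summed by subfamily. edgeR 4.0.16 (R 4.3.3) quasi-likelihood tests took library sizes and TMM factors from the genes, dropped low features by filterByExpr and were adjusted over all subfamilies, copies or genes tested (Benjamini-Hochberg). A call was an adjusted p under 0.05. Translation efficiency was tested as a genotype by assay interaction in 1 fit of the 12 libraries. Summed levels were compared by exact permutation tests. Alternatives included DESeq2 1.42.0 and limma 3.58.1. RNA and footprints of 1 extract were paired by the study's aliquots, and their deviations correlated at 0.25 to 0.79 over 12265 genes. No libraries held identical counts.

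Named subfamilies were those called, the 8 most abundant in RNA, well known mouse elements, and the 3 largest changes each way with a mean of at least 20 counts. Copies were named as the most counted of a subfamily or after their values were seen. Members, gene lists and rules were chosen with earlier results of these data known. Intervals on counts and floors of 3 counts cover counting error only. The p-values set the difference between genotypes against the spread between libraries, with 3 replicates per group. In edgeR that spread was partly shared across features, and in the footprint fit of subfamilies the biological coefficient of variation was nearly the same for all.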

Additional observations from a re-analysis of the deposited data

How the results depend on the processing

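The count of ERV1 subfamilies called in RNA was 0 with all libraries, 1 with limma voom, 2 with a replicate block (LTR68 and RLTR1B-int), 0 to 1 with single libraries left out and 0 under the other alternatives run. In footprints it was 4, and it was 1 with DESeq2, 2 with robust edgeR, 2 with limma voom, 0 when scaled on repeats, 0 when genes and subfamilies were fitted together, 1 without the most counted copy of each subfamily, 3 with a replicate block, 0 to 5 with single libraries left out, and 4 or 5 otherwise. For translation efficiency it was 0 throughout, with extracts as a replicate block included. The 6 copies called in RNA became 1 at a mean of at least 20 counts, 5 to 9 with single libraries left out and 6 with a replicate block, and the 3 in footprints became 2 to 3. Libraries of different genotypes with the same replicate number correlated at -0.01 to 0.27 in RNA and 0.06 to 0.25 in footprints. Those with different numbers correlated at -0.40 to 0.38 in RNA and -0.26 to 0.19 in footprints. The ranges overlap, so whether replicate numbers pair the genotypes was not settled. The summed ERV1 difference (log2) was between 0.00 and 0.22 in RNA, and in footprints between -0.10 and 0.16. Where calls changed, the cause was not tested. Summing only copies outside gene bodies was not run, as the table gives no positions. Subfamilies below the filter on low counts, 60 in RNA and 69 in footprints, were not tested, and depth limits what their levels show. Copy tests, and the alternatives to them, were chosen after seeing the data.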
